A study of Mus musculus with 3 samples.

Results

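The Krüppel-like factors described here were the 10 genes Klf2, Klf3, Klf4, Klf5, Klf6, Klf7, Klf9, Klf10, Klf13 and Klf15, taken by their symbols from the 23238 gene symbols of the series. The count tables held 17 Klf genes in all, and the 7 that were not chosen (Klf1, Klf8, Klf11, Klf12, Klf14, Klf16 and Klf17) were kept as a comparison list. RNA-seq was performed on c2c12 cells, an immortalized mouse myoblast line that fuses into myotubes when serum is reduced. The cells were kept for 2 days in myogenic induction medium with 2% horse serum on 1 of 3 substrates. TCP is the tissue culture plate, GelMA is a hydrogel of methacrylated gelatin at 15% (w/v), and GelMA-PSS is the same gel with 1% (w/v) poly(sodium 4-styrenesulfonate), a sulfonated polymer used to mimic heparin. Each substrate had 1 library, so no difference between substrates has a replicate check, no p-value was computed, and the words higher and lower describe 3 libraries and not 3 conditions.

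The KLF proteins bind GC-rich and CACCC elements of DNA through zinc fingers at the carboxyl end and differ in the cofactors that their other end recruits. KLF2, KLF4, KLF5, KLF6 and KLF7 are mostly activators that bind acetyltransferases, KLF3 is a repressor that binds CtBP, and KLF9, KLF10 and KLF13 bind the corepressor SIN3A. In muscle, KLF2 and KLF4 act downstream of the kinase ERK5 during myoblast fusion. KLF5 binds muscle enhancers together with MyoD and MEF2, and KLF15 is a target of glucocorticoids that controls amino acid catabolism.

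The upstream sequences of Klf2 and Klf4 are shown because MEF2 genes were listed as possible inputs to both, in a list compared with the family. Promoter windows of RefSeq on GRCm38.p6, from 250 bases before to 50 bases after each start site, were matched for 8 of the 10 genes and not for Klf5 and Klf10. The 250 bases before the start of Klf2 lie at chr8:72318812-72319061 on the plus strand, and those of Klf4 at chr4:55532476-55532725 on the minus strand. Capitals mark GGGCGG on either strand, where the reverse strand reads CCGCCC, and matches to the MEF2 consensus.
Klf2: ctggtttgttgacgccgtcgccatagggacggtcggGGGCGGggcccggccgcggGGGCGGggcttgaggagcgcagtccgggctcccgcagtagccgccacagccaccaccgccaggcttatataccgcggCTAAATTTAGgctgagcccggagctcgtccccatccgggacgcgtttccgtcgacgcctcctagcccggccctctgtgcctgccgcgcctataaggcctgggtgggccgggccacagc
Klf4: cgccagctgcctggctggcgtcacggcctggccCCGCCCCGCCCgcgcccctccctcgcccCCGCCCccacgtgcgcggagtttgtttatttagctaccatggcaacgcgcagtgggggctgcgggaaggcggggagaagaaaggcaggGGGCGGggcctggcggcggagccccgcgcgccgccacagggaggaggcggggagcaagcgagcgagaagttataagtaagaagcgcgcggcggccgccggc

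The Klf2 window held 2 copies of GGGCGG and 1 match to the MEF2 consensus, CTAAATTTAG, from -118 to -109 counted from the start site. The Klf4 window held 4 copies of GGGCGG, of which 2 overlap by their last base, and no match to the MEF2 consensus. Klf2 was the only 1 of the 8 windows with a MEF2 match, a motif found in 3.19% of 32851 RefSeq promoter windows of the same length. GGGCGG was in 7 of the 8 windows, all but that of Klf9, against 35.7% of all windows, and Klf3 held 6 copies. CACCC was in 6 of the 8, against 57.5% of all windows. The GC content of the 8 windows ran from 58.3% (Klf7) to 76.7% (Klf3), and the shares of all windows were not matched for it. Both strands were searched, and a match is a description of letters and not a binding site.

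The TCP library held 119799095 counts, the GelMA library 87071144 and the GelMA-PSS library 192171443. Levels are given as CPM, the counts of a gene scaled to a common library size with TMM factors, with a 95% Wilson interval, and ratios between libraries as a fold of CPM with a 95% interval from the exact binomial split of the counts. Both intervals cover counting error only. Log2 ratios were taken on CPM + 1, which understates differences of low genes. The myoblast and myotube markers were all present, with a summed CPM of 21422 on TCP, 16047 on GelMA and 12822 on GelMA-PSS. Most of this difference was Myh3, embryonic myosin, with a CPM of 10182, 6355.5 and 3036.5. Ckm, with 542.3, 430.3 and 379.7, and Acta1, with 6191.7, 5379.4 and 5059.6, fell in the same order. Of the 7 markers, 5 had a log2 ratio below 0 against TCP and 3 against GelMA. Myf5 and Myod1 went the other way. Myf5, the early myogenic factor, had a CPM of 13.9, 19.5 and 36.5 and was past 2-fold against TCP, Myod1 had 94.3, 104.6 and 119.2, and the GelMA-PSS values of Myog and Des lay between those of GelMA and TCP. The markers of adipocytes, macrophages and endothelial cells summed to a CPM between 0.0221 and 0.286 in every library, and those of neurons to between 2.00 and 3.87, nearly all from Snap25. In bulk RNA, fewer cells of a type and less RNA per cell cannot be told apart, and the part of the lower muscle marker level in the differences below was not tested.

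Of the 10 Klf genes, 9 reached a CPM of 1 in at least 1 library, as did 13169 genes in all, and Klf15 did not. On GelMA-PSS, Klf5 was the gene furthest below its levels on both other substrates, Klf7 and Klf13 were lower than on GelMA, Klf2 was higher than on both other substrates, and Klf4 and Klf6 were near their levels on GelMA. Klf5 on GelMA-PSS against TCP was the single value past 2-fold among these 9 genes. Against GelMA, 0 of the 9 genes were past 2-fold in either direction, where 1.77% of all genes were higher and 2.33% lower. Against TCP, 0 were higher and 1 was lower, where 3.72% of all genes were higher and 3.13% lower. Between GelMA and TCP, 0 were past 2-fold, where 0.706% of all genes were higher and 0.296% lower. A count of 0 or 1 among 9 genes cannot be set apart from these shares.

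At 1.5-fold, Klf5, Klf7 and Klf13 were lower on GelMA-PSS than on GelMA and 0 were higher, where 10.8% of all genes were lower and 11.0% higher. Against TCP, Klf5 alone was lower and 0 were higher, where 11.5% of all genes were lower and 13.2% higher. Between GelMA and TCP, 0 of the 9 genes were past 1.5-fold, where 3.50% of all genes were higher and 2.12% lower. Against GelMA, the 9 genes had a median log2 ratio of -0.33, and all genes one of 0.035. Against TCP, their median was -0.22, and that of all genes 0.036. Between GelMA and TCP, the medians were -0.0021 and -0.0099. Both comparisons of GelMA-PSS share that library, so they are not independent.

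By the order of the 3 levels, 5 of the 9 genes (Klf3, Klf5, Klf7, Klf9 and Klf13) were lower on GelMA-PSS than on both other substrates, an order held by 39.3% of all genes. Klf2 and Klf6 were higher on GelMA-PSS than on both, as were 45.3% of all genes, and Klf4 and Klf10 lay between, as did 15.4%. With total counts in place of TMM factors, Klf4 and Klf6 were lower on GelMA-PSS than on both, which made 7 genes. That setting shifted the median of all genes by -0.135 against GelMA and -0.100 against TCP. The share of all genes in this order was not computed under it.

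**Figure D1:**
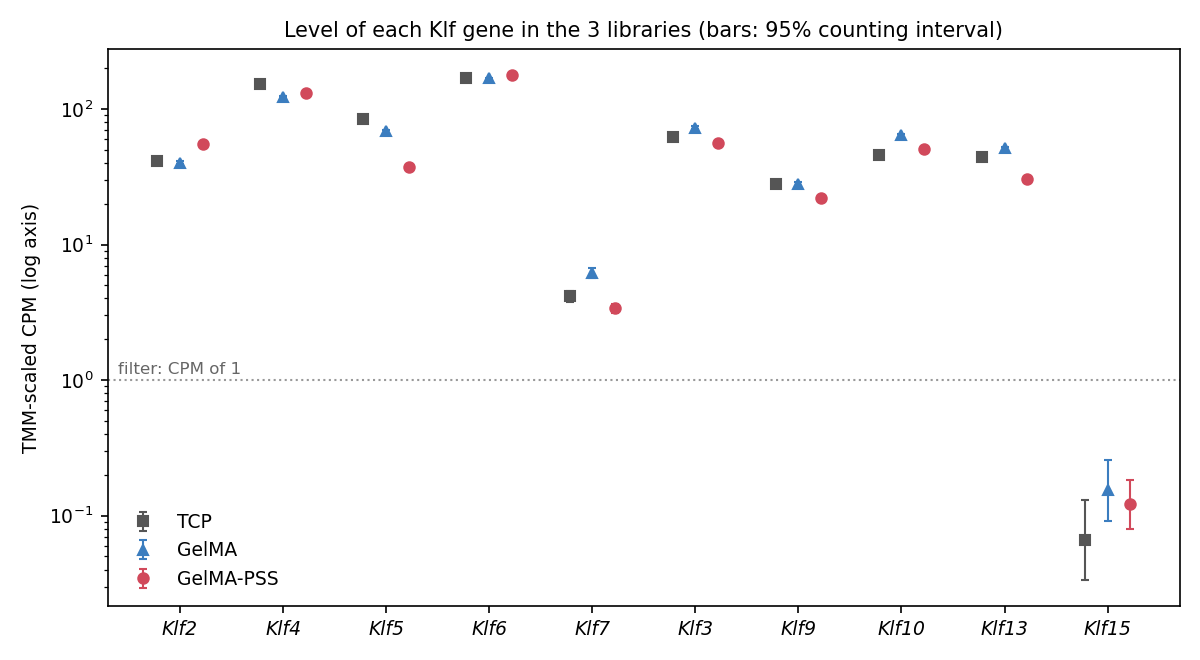
TMM-scaled CPM (log axis) of each Klf gene in the TCP, GelMA and GelMA-PSS libraries, with bars for the 95% Wilson counting interval and a dotted line at the CPM of 1 used as the filter. The Klf5 point of GelMA-PSS, at 37.4, sits well below those of TCP (83.9) and GelMA (68.6), and the 3 points of Klf15 lie below the filter with intervals that overlap.

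Among the acetyltransferase-binding activators, Klf5 (chromosome 14, 99298691 to 99315036, plus strand, 4 exons; all loci are of the GENCODE annotation of GRCm38) had 10219 counts on TCP, 6235 on GelMA and 6766 on GelMA-PSS. These are CPM values of 83.9 (interval 82.3 to 85.6), 68.6 (66.9 to 70.3) and 37.4 (36.5 to 38.3). The 3 intervals did not overlap, and the order ran from TCP through GelMA to GelMA-PSS. The level on GelMA-PSS was 2.25-fold lower than on TCP (2.18 to 2.32) and 1.84-fold lower than on GelMA (1.77 to 1.90), while GelMA was at 0.818 of TCP (0.792 to 0.844). Of all genes tested, the log2 ratio of Klf5 stood at percentile 1.86 against TCP (-1.15) and 3.90 against GelMA (-0.86). KLF5 is best known for proliferation and for the differentiation of smooth muscle and fat cells, besides its role at muscle enhancers.

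Klf2, which in endothelial cells responds to flow and in myoblasts lies downstream of ERK5, is on chromosome 8 from 72319033 to 72321656 on the plus strand, with 3 exons. It had 5010 counts on TCP, 3659 on GelMA and 10075 on GelMA-PSS, which are CPM values of 41.1 (40.0 to 42.3), 40.3 (39.0 to 41.6) and 55.6 (54.5 to 56.7). The intervals of TCP and GelMA overlapped, and that of GelMA-PSS lay above both. GelMA-PSS was 1.38-fold higher than GelMA (1.33 to 1.43) and 1.35-fold higher than TCP (1.31 to 1.40). Its log2 ratios of 0.46 and 0.43 stood at percentiles 82.8 and 79.4 of all genes, and were the largest positive values among the 9 genes past the filter.

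Klf4 encodes a factor known from pluripotency and from growth arrest in epithelia, and shares with Klf2 its place after ERK5. It lies on chromosome 4 from 55527143 to 55532466 on the minus strand, with 5 exons. Its counts were 18605 on TCP, 11212 on GelMA and 23753 on GelMA-PSS, and its CPM was 152.8 (150.6 to 155.0), 123.4 (121.1 to 125.7) and 131.1 (129.5 to 132.8). TCP was the highest of the 3 libraries, and both gels lay below it, GelMA at 0.807 of TCP (0.789 to 0.827) and GelMA-PSS at 0.858 (0.842 to 0.875). GelMA-PSS was 1.06-fold higher than GelMA (1.04 to 1.09), a log2 ratio of 0.087 that turned to -0.059 with total counts in place of TMM. Klf2 and Klf4 thus differed in order, since Klf2 was highest on GelMA-PSS and Klf4 on TCP.

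Klf6, an early gene of injury and stress responses, had the highest CPM of the family, with 168.3 on TCP (166.0 to 170.6), 168.0 on GelMA (165.4 to 170.7) and 177.6 on GelMA-PSS (175.6 to 179.5), from 20490, 15269 and 32169 counts. It lies on chromosome 13 from 5861482 to 5870394 on the plus strand, with 4 exons. TCP and GelMA overlapped, and GelMA-PSS was 1.06-fold higher than GelMA (1.04 to 1.08), a log2 ratio of 0.079 that turned to -0.067 with total counts in place of TMM. Against TCP the fold was also 1.06 (1.04 to 1.07), and its log2 ratio of 0.077 turned to -0.031 in the same way.

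Klf7, known for axon growth in neurons and for restraining fat cell formation, is on chromosome 1 from 64029447 to 64122282 on the minus strand, with 4 exons. It had 504 counts on TCP, 560 on GelMA and 612 on GelMA-PSS, or a CPM of 4.14 (3.79 to 4.52), 6.16 (5.67 to 6.69) and 3.38 (3.12 to 3.66). GelMA was the highest library, 1.49-fold higher than TCP (1.32 to 1.68), and GelMA-PSS the lowest, 1.82-fold lower than GelMA (1.62 to 2.05). Of the 7562 stretches as long as a read in its longest coding transcript, 3006 (39.8%) also occur in Gm26649, a lincRNA on the opposite strand. Whether the counting used strand is not given in the sources used here, so reads of this stretch cannot be told apart and the Klf7 values are uncertain.

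Klf3, the CtBP-binding repressor, which also acts with SRF at muscle promoters, is on chromosome 5 from 64803388 to 64832901 on the plus strand, with 6 exons. Its counts were 7587 on TCP, 6603 on GelMA and 10169 on GelMA-PSS, and its CPM was 62.3 (60.9 to 63.7), 72.7 (70.9 to 74.4) and 56.1 (55.1 to 57.2). No intervals overlapped. GelMA-PSS was at 0.773 of GelMA (0.749 to 0.797) and 0.901 of TCP (0.874 to 0.928), and GelMA was 1.17-fold higher than TCP (1.13 to 1.21). A small part of its transcript, 305 of 5121 stretches (5.96%), is shared with the overlapping Gm20033 on the opposite strand.

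Among the SIN3A-binding factors, Klf13, known as a regulator of chemokine expression in T cells, was lower on GelMA-PSS by the widest margin before transcript length was taken into account. It lies on chromosome 7 from 63886351 to 63938915 on the minus strand, with 2 exons. Its counts were 5363 on TCP, 4649 on GelMA and 5558 on GelMA-PSS, and its CPM was 44.0 (42.9 to 45.2), 51.2 (49.7 to 52.7) and 30.7 (29.9 to 31.5). GelMA-PSS was 1.67-fold lower than GelMA (1.60 to 1.73) and 1.44-fold lower than TCP (1.38 to 1.49). These log2 ratios of -0.72 and -0.51 stood at percentiles 6.68 and 14.5 of all genes. E030018B13Rik, which overlaps Klf13 on the opposite strand, had only 114, 176 and 126 counts.

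Klf9, which is induced by thyroid hormone and glucocorticoids, is on chromosome 19 from 23141226 to 23168134 on the plus strand, with 2 exons. It had 3413 counts on TCP, 2534 on GelMA and 3982 on GelMA-PSS, or a CPM of 28.0 (27.1 to 29.0), 27.9 (26.8 to 29.0) and 21.98 (21.3 to 22.7). TCP and GelMA overlapped and GelMA-PSS lay below both, at 0.788 of GelMA (0.750 to 0.829) and 0.784 of TCP (0.749 to 0.821). Klf10, an early target of TGF-β that is also called TIEG1, is on chromosome 15 from 38291463 to 38300706 on the minus strand, with 4 exons. Its counts were 5539 on TCP, 5822 on GelMA and 9244 on GelMA-PSS, and its CPM was 45.5 (44.3 to 46.7), 64.1 (62.4 to 65.7) and 51.0 (50.0 to 52.1). GelMA was the highest library for Klf10, 1.41-fold higher than TCP (1.36 to 1.46), at percentile 94.5 of all genes. GelMA-PSS lay between, at 0.797 of GelMA (0.771 to 0.823) and 1.12-fold higher than TCP (1.08 to 1.16).

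Klf15, on chromosome 6 from 90462576 to 90475238 on the plus strand with 4 exons, had 8 counts on TCP, 14 on GelMA and 22 on GelMA-PSS. Its CPM was 0.0657 (0.0333 to 0.130), 0.154 (0.0918 to 0.259) and 0.121 (0.0802 to 0.184). The ratio of GelMA-PSS to TCP was 1.85 (0.793 to 4.80) and to GelMA 0.788 (0.386 to 1.67), and that of GelMA to TCP was 2.34 (0.918 to 6.45). All 3 intervals include 1, so a difference was not detectable at this depth.

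**Figure D2:**
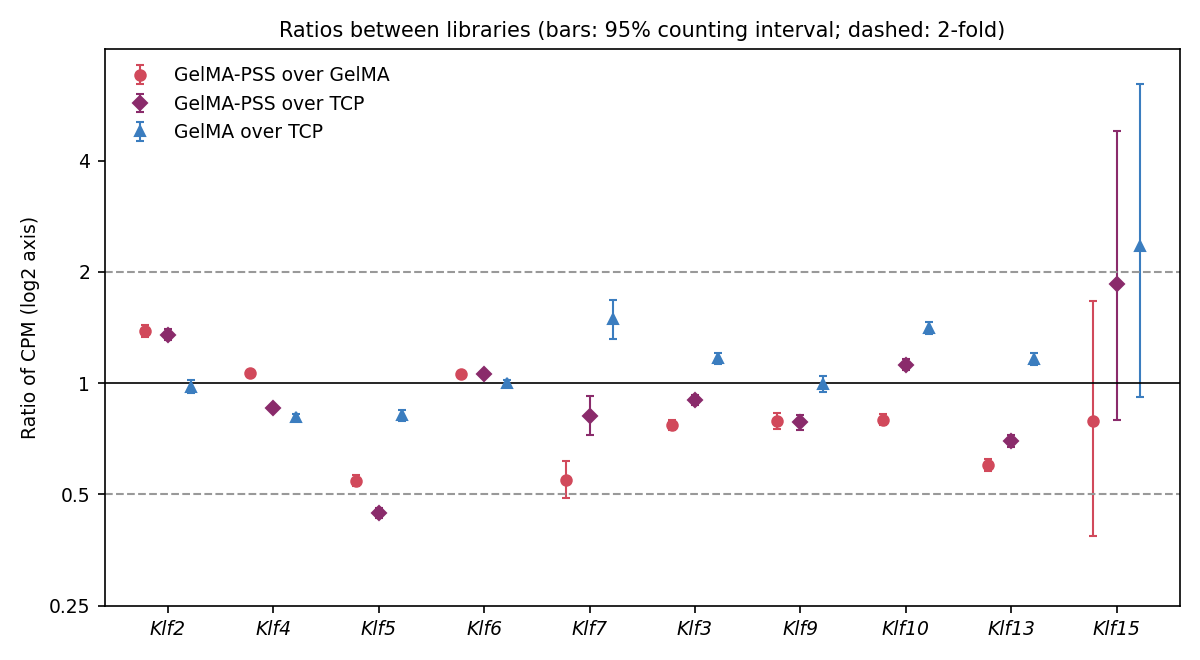
Ratio of CPM (log2 axis) between libraries for each Klf gene, for GelMA-PSS over GelMA (circles), GelMA-PSS over TCP (diamonds) and GelMA over TCP (triangles), with bars for the 95% counting interval and dashed lines at 2-fold. The Klf5 ratio of GelMA-PSS to TCP, 0.445, is the only point below the lower dashed line. The Klf15 ratio of GelMA to TCP, 2.34 (0.918 to 6.45), lies above the upper one. The Klf15 bars are wide because they rest on 8 to 22 counts.

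Compared per length, as CPM per kb of transcript, Klf4 and Klf6 were the most abundant of the family in every library. Their levels were 50.4 and 39.8 CPM per kb on TCP, 40.7 and 39.8 on GelMA, and 43.3 and 42.0 on GelMA-PSS, and only on GelMA did the counting intervals of the pair overlap. Klf5 was the third on TCP, at 25.04 CPM per kb, and the fifth on GelMA-PSS, at 11.1, where its interval overlapped that of Klf3 at 10.8. Klf2 was the fourth on TCP, at 22.3 CPM per kb, and the third on GelMA-PSS, at 30.1. On GelMA, Klf2, Klf10 and Klf5 lay at 21.8, 21.0 and 20.5 CPM per kb, and each neighbouring pair overlapped. Klf13 and Klf9 were next to each other in every library, at 6.89 and 6.25 on TCP, 7.998 and 6.216 on GelMA, and 4.80 and 4.90 on GelMA-PSS, where they overlapped. Klf7 stayed below 1 CPM per kb and Klf15 was the lowest throughout.

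Transcript length moved with these ratios. Among the 13053 tested genes matched to a transcript, its length and the log2 ratio of GelMA-PSS to GelMA had a Spearman's rho of -0.66. For GelMA-PSS to TCP rho was -0.50, and for GelMA to TCP it was 0.21. Over the 9 Klf genes rho was -0.70, -0.52 and 0.55 in the same order. These are descriptions across genes that share their libraries, and genes are not independent replicates. The median transcript of the tested genes was 2911 bases long, while Klf7 has 7662, Klf13 has 6396 and Klf2 has 1847.

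After the trends over length and GC content were subtracted, Klf5 stood at -0.87 relative to GelMA and at -1.14 relative to TCP, about as before, and stood at percentiles 1.95 and 1.48 of all genes. Klf5 is 3352 bases long, near the median. Klf13 moved from -0.72 to -0.20 against GelMA and from -0.51 to -0.11 against TCP. It was then no longer the lowest of the SIN3A-binding factors, since Klf10 stood at -0.40 relative to GelMA and Klf9 at -0.21 relative to TCP. Klf7 moved from -0.71 to -0.19 against GelMA and turned from -0.23 to 0.14 against TCP, and Klf3 turned from -0.15 to 0.024 against TCP. Klf2 kept 0.34 against GelMA and 0.37 against TCP. With this correction 3 genes (Klf5, Klf9 and Klf13) were lower on GelMA-PSS than on both other substrates, and the median over the 9 genes was -0.17 against GelMA and 0.024 against TCP. The share of all genes in that order was not computed with the correction, so the 3 genes cannot be set against it. What lies behind the length trend was not tested.

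**Figure D3:**
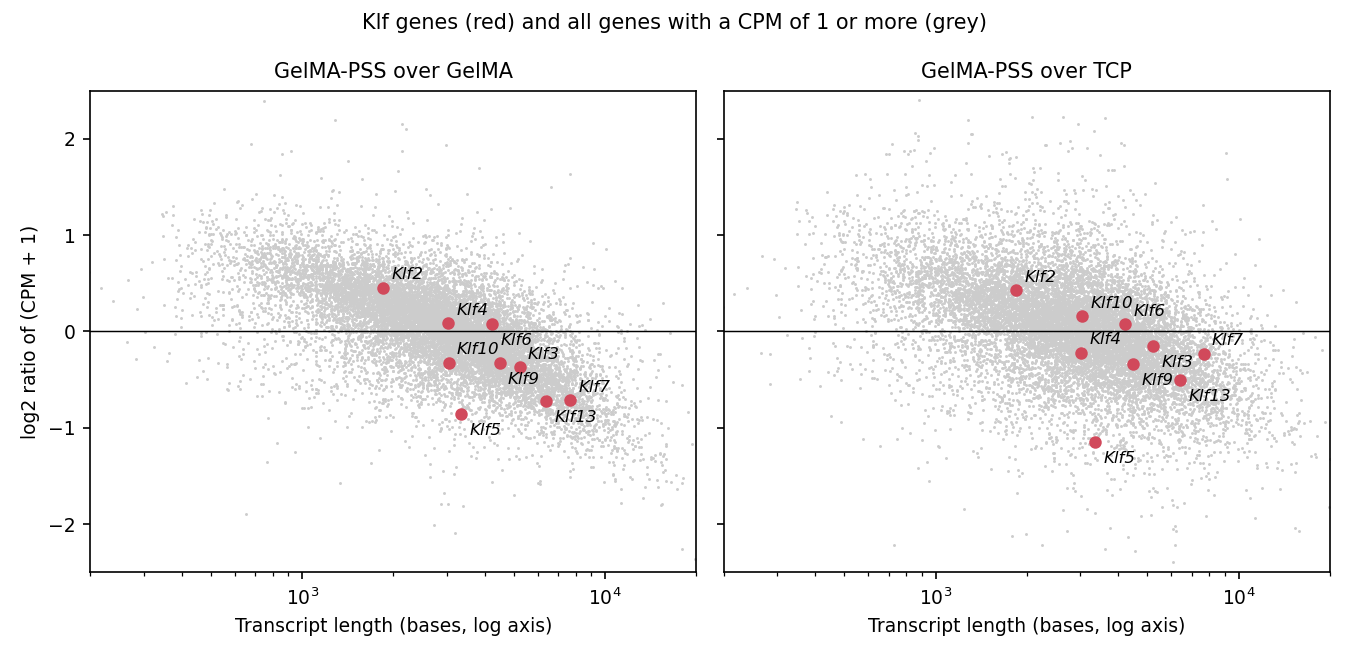
Log2 ratio of (CPM + 1) against transcript length (bases, log axis) for the Klf genes past the filter (red) and all tested genes (grey), for GelMA-PSS over GelMA (left) and over TCP (right). The long Klf7 and Klf13 lie within the sloping cloud of grey points and Klf5, at -0.86 and -1.15, lies at its lower edge, while 135 genes on the left and 142 on the right are outside the axes.

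The rest of the KLF and SP family, which binds the same kind of GC-rich element, had 8 of 16 members past the filter. On the log2 scale of CPM + 1, 0 of them were past 2-fold in any comparison. Sp6, named after its values were seen, had a CPM of 1.00 on TCP, 1.62 on GelMA and 2.21 on GelMA-PSS, near the filter. As a plain fold of CPM it was 2.21-fold higher on GelMA-PSS than on TCP (1.80 to 2.73), a log2 ratio of 0.68. The median of the list was -0.24 relative to GelMA and -0.066 relative to TCP, and with length and GC content corrected for -0.069 and 0.078. The members with the largest ratios against GelMA were Sp1, at 61.8 CPM on TCP, 82.3 on GelMA and 50.0 on GelMA-PSS, and Klf12, a CtBP-binding repressor like Klf3, at 1.73, 2.35 and 1.39. The log2 ratio of Sp1 to GelMA was -0.71 and to TCP -0.30, and with its transcript of 7754 bases these became -0.21 and 0.050 once corrected. Klf1, Klf8 and Klf14 stayed below the filter, and Klf17 had 0, 3 and 0 counts on TCP, GelMA and GelMA-PSS.

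All 7 genes of the ERK5 and MEF2 list, taken as possible inputs to Klf2 and Klf4, were past the filter. Their medians were -0.69 relative to GelMA and -0.72 relative to TCP, while Klf2 itself was higher and Klf4 between. The corrected medians of this list were -0.42 and -0.38. Mef2c, a MEF2 factor of differentiating muscle, had a CPM of 288.8 on TCP, 180.6 on GelMA and 81.0 on GelMA-PSS, and log2 ratios of -1.15 and -1.82, which were -0.85 and -1.61 once corrected. Map3k2, a kinase upstream of ERK5, had 36.1, 43.8 and 19.5, and its log2 ratio to GelMA moved from -1.13 to -0.42 once length and GC content were corrected for. Mef2a and Mef2d, named after their values were seen, stood at log2 ratios of -0.69 and -0.82 to GelMA, and at -0.72 and -0.96 to TCP, and their corrected values were -0.47 and -0.96, and -0.57 and -1.05. Mapk7, the gene of ERK5 itself, also named so, had 45.0, 41.5 and 41.2 CPM. Map2k5 and Map3k3, named in the same way, lay above the list medians. Their log2 ratios were 0.045 and -0.26 to GelMA, and -0.15 and -0.065 to TCP. Npnt, the gene of the matrix protein nephronectin and a known target of KLF2 and KLF4 in myoblasts, had a CPM of 970.5 on TCP, 699.8 on GelMA and 534.7 on GelMA-PSS, and its log2 ratio to TCP of -0.86 became -1.04 once corrected. Of its receptor, Itgb1 had log2 ratios of -0.020 and -0.13, and Itga8 was below the filter.

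Among the coregulators that KLF proteins recruit, 10 of 10 genes were past the filter, with a median of -0.017 relative to GelMA and 0.15 relative to TCP. The acetyltransferase genes Crebbp and Ep300 were lower on GelMA-PSS, with log2 ratios to GelMA of -1.55 and -1.12, and to TCP of -1.24 and -0.83. Their transcripts are among the longest of the lists, with 10820 and 9566 bases, and their corrected log2 ratios were -0.67 and -0.35 to GelMA and -0.62 and -0.27 to TCP, all within 2-fold. The corepressor genes Ctbp1, Ctbp2, Sin3a and Sin3b were all within 2-fold. Sin3b had the largest ratios of these, at 0.49 relative to GelMA and 0.50 relative to TCP, which rose to 0.71 and 0.68 once corrected.

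The TGF-β list around Klf10 had 10 of 10 genes past the filter and 0 past 2-fold on the log2 scale of CPM + 1. As a plain fold of CPM, Smad7 and Tgfbr1 were past it on GelMA-PSS against TCP, 2.06-fold and 2.03-fold lower. Their log2 ratios to TCP were -0.93 and -0.98. In both comparisons of GelMA-PSS 9 of the 10 were below 0, where 6179 of all 13169 genes were below 0 against GelMA and 6210 against TCP. The medians were -0.36 and -0.43, and -0.16 and -0.34 once corrected. Smad7, the inhibitory SMAD, had a CPM of 12.3 on TCP, 11.4 on GelMA and 5.98 on GelMA-PSS, and Tgfbr1, the type I receptor, had 35.3, 30.9 and 17.4. Klf10 did not share this order, being highest on GelMA. In the glucocorticoid list around Klf15, 15 of 16 genes were past the filter, with medians of -0.22 and -0.31. Foxo1 and Foxo3, which encode forkhead factors of the atrophy program, stood at -0.79 and -0.91 relative to GelMA, and at -1.25 and -0.48 relative to TCP. Both transcripts are long, with 8665 and 6848 bases, and the corrected values were -0.13 and -0.37 relative to GelMA and -0.76 and -0.087 relative to TCP.

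The ubiquitin ligases of KLF proteins were 5 of 5 past the filter, with medians of -0.27 and -0.23 that became -0.034 and -0.15 once corrected. Fbxw7, which targets KLF5 protein among others, had 49.1 CPM on TCP, 35.8 on GelMA and 22.6 on GelMA-PSS, past 2-fold against TCP (-1.09, and -0.97 once corrected). Smurf1 had log2 ratios of -0.32 and -0.25, which turned to 0.083 and 0.056 with the correction. The cell cycle list held cyclin genes and Cdkn1a, Cdkn1b and Cdkn1c, the genes of inhibitors of cyclin-dependent kinases. Of these cell cycle genes, 6 of 6 were past the filter, with medians of 0.27 and 0.54. Among the inhibitors, Cdkn1a and Cdkn1c were lower on GelMA-PSS, at -0.022 and -0.49 relative to GelMA and -0.32 and -0.75 relative to TCP. Cdkn1b was higher, at 0.20 and 0.30. Ccnd1, which encodes cyclin D1, had 28.6 CPM on TCP, 58.1 on GelMA and 74.4 on GelMA-PSS, and Ccnb1, cyclin B1, had 20.0, 29.3 and 41.8, both past 2-fold against TCP. With the correction Ccnd1 stayed past it (1.42) and Ccnb1 did not (0.86). Klf5 was lowest on GelMA-PSS, where Ccnd1 and Ccnb1 were highest, and a link between Klf5 and these cyclins was not tested.

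The adipogenic partners had 4 of 6 genes past the filter, with medians of 0.22 and 0.19, and the largest ratios against GelMA were those of Cebpd (0.57) and Pparg (0.46). With the correction the list medians were 0.079 and 0.15, and Pparg was at 0.098 relative to GelMA and turned from 0.15 to -0.13 relative to TCP. Cebpd instead rose, to 0.67 relative to GelMA and from 0.69 to 0.76 relative to TCP. Of the muscle genes of KLF3 and SRF, 3 of 3 were past the filter, with medians of -0.15 and -0.29 (-0.21 and -0.52 once corrected), and the log2 ratios of Ckm, muscle creatine kinase, and of Srf were -0.18 and -0.15 against GelMA. With length and GC content corrected for, the ERK5 and MEF2 median against TCP (-0.38) lay above those of the KLF3 and SRF list (-0.52) and the nephronectin list (-0.58). The latter 2 medians rest on only 3 and 2 genes past the filter. Srf itself stood at -0.046 relative to GelMA and 0.006 relative to TCP once corrected.

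**Figure D4:**
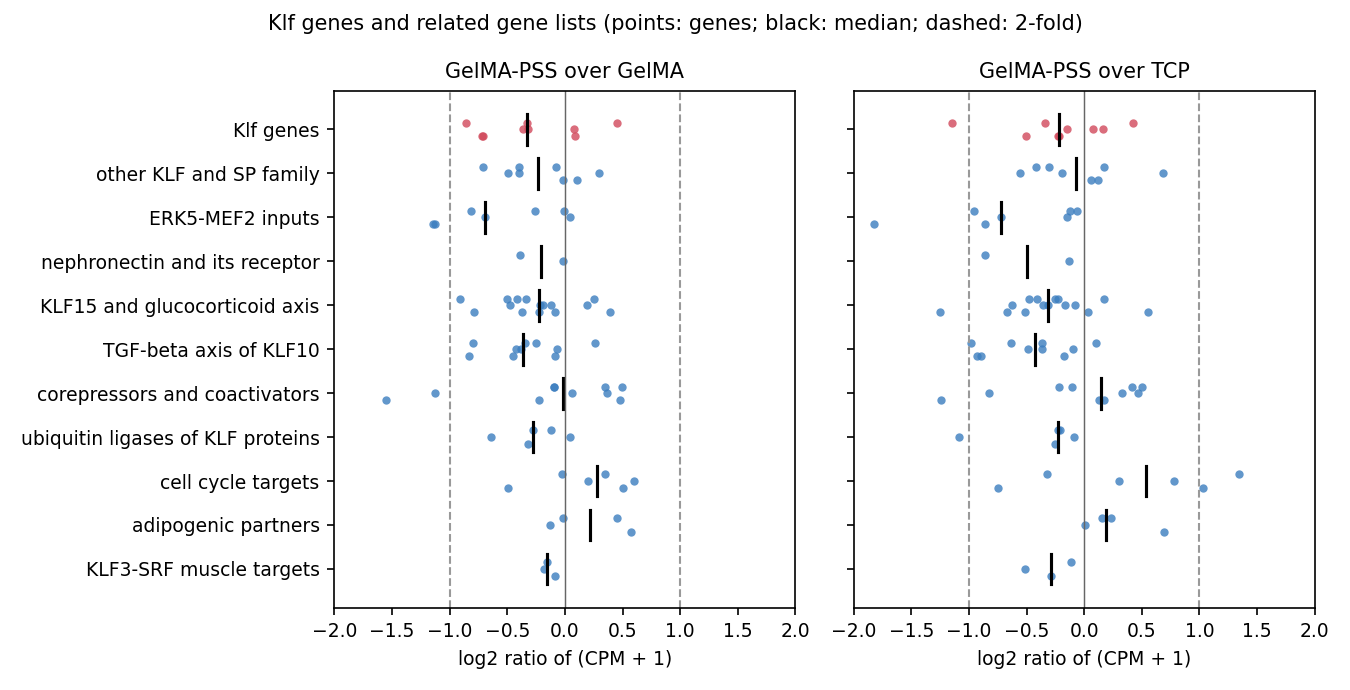
Log2 ratio of (CPM + 1) for GelMA-PSS over GelMA (left) and over TCP (right) of the Klf genes (red) and of the genes of 10 related lists (blue) past the filter, with a black line at each median and dashed lines at 2-fold. Before the correction, as plotted, the ERK5 and MEF2 list has the lowest median in both panels (-0.69 and -0.72) and the cell cycle list the highest (0.27 and 0.54), with the Klf genes at -0.33 and -0.22.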

How the data were processed

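RNA-seq of 3 libraries, 1 per substrate, was analysed. The deposited values are raw counts per gene symbol, which the authors made from paired-end reads described as strand-specific. The labels name a SMARTER mRNA kit and the methods a TruSeq kit. The submitters' processing notes name TopHat, edgeR and the builds mm10 and hg19 with no role, and the counting tool and annotation are not given in the sources used here. Of 23282 lines, 35 symbols stood on more than one line and were summed.

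CPM was scaled by TMM factors from edgeR 4.0.16 in R 4.3.3, which were 1.02 (TCP), 1.04 (GelMA) and 0.943 (GelMA-PSS). A gene was kept if its CPM reached 1 in any library. A pseudocount of 1 was used on the log2 scale, and a gene was called past 2-fold on that scale, with 1.5-fold beside it. The smallest value treated as detected, 3 counts, is a CPM of 0.0246, 0.033 and 0.0166. Intervals (scipy 1.17.1) treat each count as a separate fragment, and would be wider if the counts hold both mates, which the sources used here do not say. Lengths, GC content and loci came from GENCODE vM21 on GRCm38, the longest coding transcript of each gene. Of the symbols, 22197 matched directly, 649 by an older name and 392 not at all. The correction subtracted lowess trends (span 0.3, statsmodels 0.14.6) over length and then GC content. Calls and trends were tested on simulated data.

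All 10 Klf genes are named, and from each related gene list the members past 2-fold in any comparison, or the 2 with the largest ratio against GelMA where fewer than 2 passed. The members and the lists were chosen with earlier results of these data known. Alternatives were another fold threshold, pseudocount, filter and scaling, and the correction for length and GC content.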

Additional observations from a re-analysis of the deposited data

How the results depend on the processing

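No paired analysis was possible because each substrate has 1 library, and leaving out a replicate could not be done. Klf5 stayed past 2-fold against TCP under every alternative tried, with log2 ratios from -1.25 to -1.07. At 1.5-fold, 3 Klf genes were past the threshold against GelMA. With total counts in place of TMM, which shifted the median of all genes by -0.135 against GelMA and -0.100 against TCP, 1 Klf gene, Klf5, was past 2-fold against GelMA. The median over the 10 Klf genes was then -0.47 against GelMA and -0.28 against TCP (-0.33 and -0.18 with TMM), and 1 gene was higher on GelMA-PSS than on both other substrates. Over all genes, the share of calls that were higher was 19.2% against GelMA and 37.0% against TCP with total counts, where it was 43.1% and 54.3% with TMM, from 120 higher and 506 lower against GelMA and 338 and 576 against TCP. With a pseudocount of 5 the median against TCP was -0.13. With a CPM of 5 or more as the filter the median between GelMA and TCP was -0.002. In the main setting it was 0.056 over the 10 Klf genes and -0.0021 over the 9 past the filter. With length and GC content corrected for, the medians were -0.17 against GelMA and 0.024 against TCP, and 3 genes were lower than on both. The shares of all genes in these orders were not computed with the correction or with total counts. The filter at a CPM of 5 and the correction leave out Klf15. A pseudocount or a filter on low values cannot change the sign of a ratio, so signs were compared only under the other settings. Of the log2 ratios of single Klf genes, 6 of 30 changed sign with total counts and 4 of 27 with the correction. With median-of-ratios size factors in place of TMM, 0 of 30 did. The count of all genes past 2-fold moved by over 1.5 times under 3 alternatives besides the lower fold threshold. With a pseudocount of 0.1 it was 356 higher and 525 lower against GelMA, 213 and 106 between GelMA and TCP, where the main counts were 233 and 307, and 93 and 39. With a pseudocount of 5 it was 140 and 158, 273 and 196 against TCP, and 30 and 15. With the correction it was 87 and 157 against GelMA and 263 and 313 against TCP, where the main counts against TCP were 490 and 412.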
